A study of Mus musculus with 19 samples.

Results

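Gluconeogenesis makes glucose from pyruvate, lactate, glycerol and amino acids, and the enzymes described here carry the steps that glycolysis cannot run backwards. Pcx, pyruvate carboxylase, makes oxaloacetate, which the phosphoenolpyruvate carboxykinases Pck1 (cytosolic) and Pck2 (mitochondrial) turn into phosphoenolpyruvate. The fructose bisphosphatases Fbp1 and Fbp2 remove a phosphate from fructose bisphosphate, and the glucose-6-phosphatase subunits G6pc and G6pc3 release glucose. Adipocytes do not export glucose in this way, and there Pck1 and Pcx are known for glyceroneogenesis and for supplying oxaloacetate to lipid synthesis. The 7 genes were found by their symbols in the gene-name columns of the expression tables. All 7 were listed among the 55573 genes of the tissue table and the 55487 genes of the BAT table, and 5 were listed among the 13756 genes of the iWAT table. Fbp1 and G6pc were not analysed in iWAT here.

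Expression was measured by RNA sequencing as FPKM, a fragment count scaled to transcript length and library size, in 19 libraries of mouse tissue. A panel of 7 tissues from wild-type (WT) mice held 1 library each, with no cold treatment given in the labels. Inguinal white adipose tissue (iWAT) and brown adipose tissue (BAT) came from WT and MCK-Musclin mice kept at 8 °C for 1 week, with 3 libraries in each of the 4 groups. MCK-Musclin mice carry the coding sequence of Musclin, a secreted muscle peptide encoded by Ostn, driven by the promoter of muscle creatine kinase, an enzyme of striated muscle, and had been backcrossed to C57BL/6J. The mice of the cold experiment were adult males fed chow. RNA of white fat was isolated with a kit and that of the other tissues with TRIzol, so depot and extraction cannot be told apart. The study's methods describe the RNA of each genotype as coming from independent animals, but do not say that each library was a separate animal. A group may hold fewer animals than libraries, n counts libraries, and p-values measure the spread between these libraries.

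Ostn, which the transgene carries, was read first as a check of the labels. In BAT it was 37.9, 31.6 and 30.3 FPKM in the MCK-Musclin libraries and listed at 0 in the 3 WT libraries. In iWAT it was 5.17 and 4.21 FPKM in MCK-Musclin replicates 2 and 3, listed at 0 in the library labelled MCK-Musclin replicate 1, and at most 0.22 FPKM in WT. Ostn thus did not bear out the label of that library, and the cause was not tested. The sum of fast muscle markers was 51.1 FPKM in it, against 233 and 249 FPKM in replicates 2 and 3. Tnnc2, one of these markers, was 3.09 FPKM in it, against 55.6 and 74.3 FPKM. The transgene has a muscle promoter, so with so little muscle RNA an Ostn of 0 does not decide the label. Member and gene list results in iWAT are therefore also given without it, for the lists as an alternative chosen after the data were seen.

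Each tissue of the panel carried the markers of its label. Myh6 reached 14088 FPKM in heart, Snap25 reached 4072 FPKM in brain, and Adipoq was 1699 FPKM in white adipose and 534 FPKM in brown adipose. Alb reached 22399 FPKM in liver, Apoa4 reached 2406 FPKM in small intestine, Tnnc2 reached 55389 FPKM in tibialis anterior (TA) muscle, and Ucp1 was 467 FPKM in brown adipose and listed at 0 in white adipose. Fast skeletal muscle markers were also present in fat of the panel, with a sum of 482 FPKM over 19 genes in white adipose and 686 FPKM in brown adipose.

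Fbp1 and Fbp2 are neighbours on chromosome 13 of GRCm38, both on the minus strand and 6330 bases apart. Fbp2 spans chr13:62836877-62858422 and Fbp1 chr13:62864753-62888282. Pck1 lies at chr2:173153048-173159273 and Pck2 at chr14:55540266-55551242, both on the plus strand. Pck2 shares 53 exonic bases with Gm10876 on the opposite strand, and alignment did not use strand, so reads there cannot be told apart. Gm10876 was listed at 0 in all tissue and BAT libraries and was not analysed in iWAT here. The 250 bases before the RefSeq start (GRCm38.p6) of both pairs are shown because the members of each pair had different tissue patterns. Capitals mark TGACG or its reverse complement CGTCA, the half-site of the cAMP response element.

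Fbp1 (chr13:62888283-62888532, minus strand): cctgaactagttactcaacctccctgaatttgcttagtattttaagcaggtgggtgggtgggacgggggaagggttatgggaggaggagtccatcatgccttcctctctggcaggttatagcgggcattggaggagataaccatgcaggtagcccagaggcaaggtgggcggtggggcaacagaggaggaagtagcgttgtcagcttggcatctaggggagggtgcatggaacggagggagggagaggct

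Fbp2 (chr13:62858401-62858650, minus strand): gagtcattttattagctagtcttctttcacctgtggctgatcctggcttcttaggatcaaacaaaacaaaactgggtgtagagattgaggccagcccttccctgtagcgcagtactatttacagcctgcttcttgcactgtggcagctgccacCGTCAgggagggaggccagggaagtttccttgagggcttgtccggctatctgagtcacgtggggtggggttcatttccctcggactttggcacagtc

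Pck1 (chr2:173152823-173153072, plus strand): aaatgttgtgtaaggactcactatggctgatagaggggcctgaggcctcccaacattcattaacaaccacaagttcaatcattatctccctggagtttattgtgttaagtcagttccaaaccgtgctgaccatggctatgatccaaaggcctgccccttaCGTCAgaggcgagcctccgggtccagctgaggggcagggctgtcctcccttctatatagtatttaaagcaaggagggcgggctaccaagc

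Pck2 (chr14:55540016-55540265, plus strand): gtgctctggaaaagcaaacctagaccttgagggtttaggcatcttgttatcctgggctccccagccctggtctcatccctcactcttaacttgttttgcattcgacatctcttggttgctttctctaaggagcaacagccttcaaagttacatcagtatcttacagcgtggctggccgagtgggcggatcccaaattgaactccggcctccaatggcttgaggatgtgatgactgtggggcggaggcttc

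Fbp2 and Pck1 each held 1 half-site in this window, and Fbp1 and Pck2 held 0. The half-site, searched on both strands, was found in 17.8% of 32851 promoter windows of the same length. The full element TGACGTCA, found in 1.55% of the windows, and TATAAA, found in 12.4%, were in none of these 4. The letters CANNTG, found in 66.2% of the windows, matched at 3 positions for Fbp2, 1 for Fbp1, 1 for Pck1 and 0 for Pck2. Binding was not measured.

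The members divided by tissue. Fbp1 and G6pc were liver genes with a lower level in small intestine, and Fbp2 was highest in small intestine. Pck1 was high in brown adipose, liver and white adipose, and Pcx was highest in white adipose. Pck2 did not exceed 6.89 FPKM in any of the 7 tissues, and G6pc3 did not exceed 16.6 FPKM. With 1 library per tissue there was no test. A member was said to have a leading tissue when its FPKM with 1 added was at least 4 times that of the next tissue, and 3 of the 7 members did so. Over the table, 3258 of 18327 genes with at least 1 FPKM in a tissue met that rule, or 17.8%.

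Fbp1, the liver fructose bisphosphatase, was 343 FPKM in liver and 13.9 FPKM in small intestine, and no other tissue exceeded 0.48 FPKM. It was listed at 0 in heart and brown adipose. The 0.48 FPKM of white adipose was 0.139% of the liver value, and Alb in the same library was 0.161% of its liver value. The shares of Fbp1 and Alb were 0.0231% and 0.00121% in brain, and 0.0220% and 0.0517% in TA muscle. The source of these low Fbp1 values was not tested. G6pc, the catalytic subunit that lets liver release glucose, had a similar order, with 108 FPKM in liver, 5.08 FPKM in small intestine and at most 0.51 FPKM elsewhere.

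Fbp2, known as the muscle fructose bisphosphatase, was 111 FPKM in small intestine. TA muscle at 13.9 FPKM and heart at 13.3 FPKM followed and had nearly equal levels. Brown adipose held 3.37 FPKM, brain and white adipose 0.30 and 0.25 FPKM, and liver was listed at 0. Fast muscle markers summed to 20.7 FPKM in small intestine and 160376 FPKM in TA muscle. The source of the intestinal Fbp2 level was not tested. Of the fructose bisphosphatase FPKM, Fbp2 made up 88.8% in small intestine and 99.5% in TA muscle, and Fbp1 made up all of it in liver.

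Pck1 reached 920 FPKM in brown adipose, 604 FPKM in liver and 510 FPKM in white adipose, a range of levels within which 1 library per tissue gives no order. Small intestine held 21.1 FPKM, and TA muscle, heart and brain held 1.13, 0.36 and 0.17 FPKM. Pck2 ranged from 0.62 FPKM in TA muscle to 6.89 FPKM in brown adipose. The summed FPKM of the panel libraries ran from 393682 in brain to 711437 in brown adipose. Rescaled to an equal sum in each library (TPM), Pck2 was highest in white adipose, at 12.4. Pck2 made up 95.1% of the carboxykinase FPKM in brain, 73.1% in heart, 19.7% in small intestine and 0.133% in liver.

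Pcx was 231 FPKM in white adipose, 89.4 FPKM in brown adipose and 86.2 FPKM in liver, and the other 4 tissues lay between 4.60 and 16.5 FPKM. G6pc3, the widely expressed phosphatase subunit, ranged from 3.14 FPKM in liver to 16.6 FPKM in white adipose. It made up 2.83% of the summed G6pc and G6pc3 FPKM in liver, 65.2% in small intestine and at least 93.3% in the other 5 tissues.

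**Figure D1:**
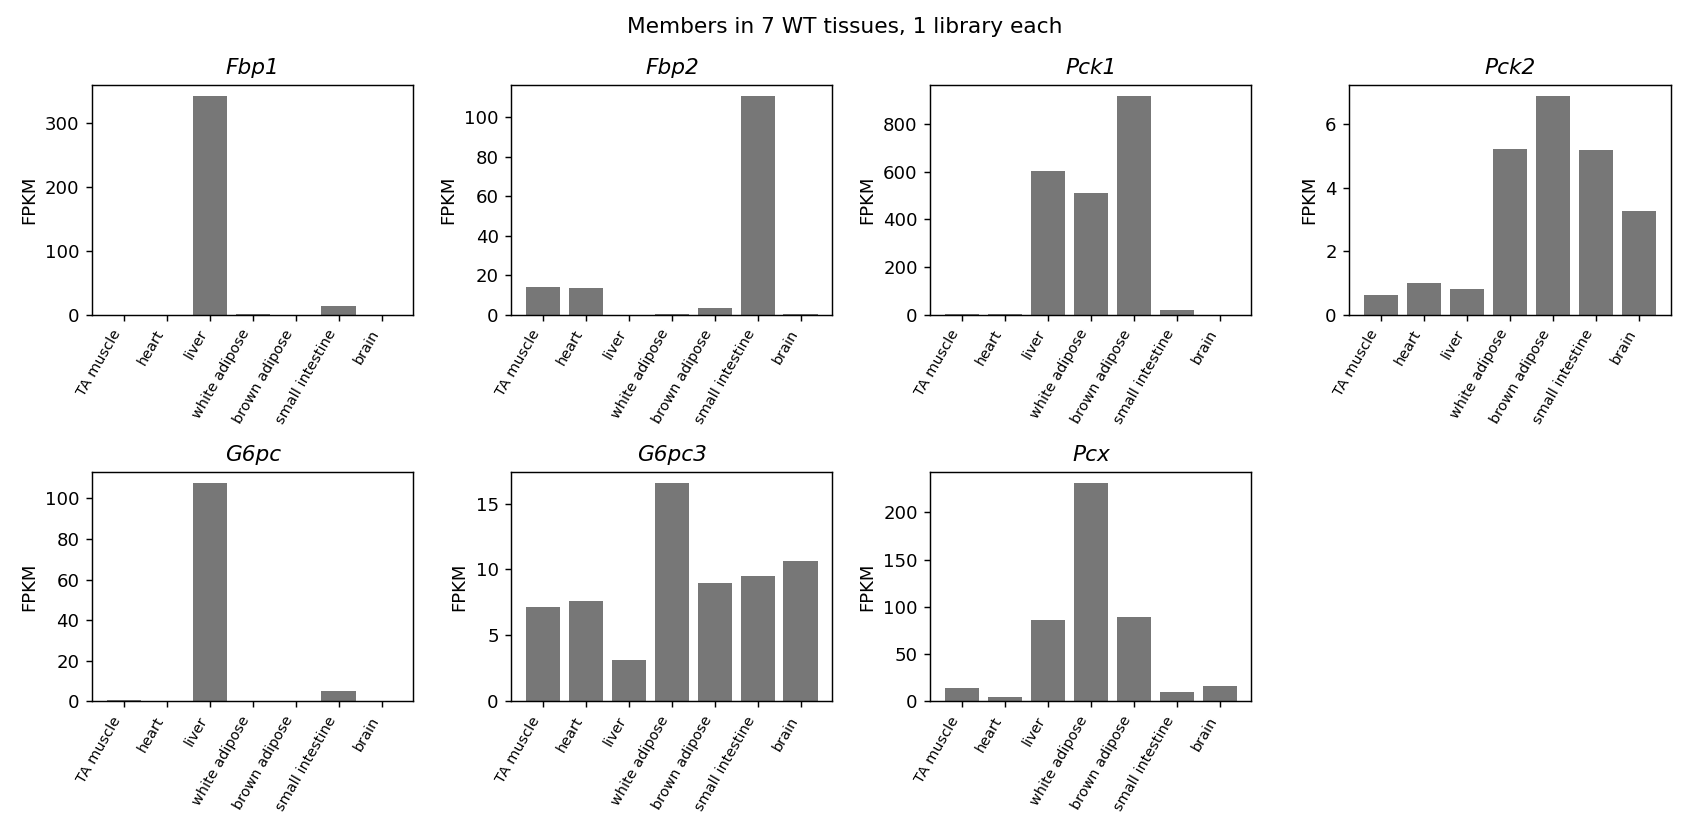
Bars show FPKM (linear axis from 0, a scale for each gene) of the 7 members in 7 WT tissues, 1 library each. Fbp1 and G6pc stand out in liver, Fbp2 in small intestine at 111 FPKM, and Pck1 in brown adipose, liver and white adipose.

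For each member the 3 genes with the highest Pearson correlation over the 7 tissue libraries, among 14692 genes with a mean of at least 1 FPKM, were taken as most like it. For Fbp1 these were Gm22935, Proz and Adh4 (r from 0.9985 to 0.9986), and for G6pc they were Slc23a1, Ugt2b5 and Urad (r from 0.9971 to 0.9985). For Fbp2 they were Atg4d, Pdss2 and Casz1, with r of 0.959, 0.956 and 0.944. For Pck1 they were Dleu2, Tmed5 and Acsm3, for Pck2 Dgkd, Smad2 and Mfsd11, for G6pc3 Ccdc77, E4f1 and Ddit4, and for Pcx 0610043K17Rik, Fra10ac1 and Fbxo36, with r between 0.965 and 0.993. Each r rests on 7 points, and the number of genes with an r of at least 0.95 ran from 2 for Fbp2 to 100 for Fbp1.

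In cold-exposed iWAT, Pck2 was higher in the libraries labelled MCK-Musclin than in those labelled WT. Values were compared on the log2(FPKM + 1) scale with limma over the 12197 genes with a mean of at least 1 FPKM, and a gene was counted when its log2 fold change exceeded 0.5 in size and its unadjusted p was below 0.05. By that rule 2 of the 5 members tested were counted, Pck2 upward and Fbp2 downward. Fbp2 reached the filter only through its WT libraries and its count is a description only. Among all genes tested, 725 were counted, of which 615 were higher (5.04%) and 110 lower (0.902%). At an adjusted p under 0.05 (limma, Benjamini-Hochberg) 0 genes were counted (0.00%), the members among them, while 2012 genes had an unadjusted p under 0.05.

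Pck2 was 4.30, 4.26 and 4.25 FPKM in the WT libraries and 6.72, 6.84 and 9.49 FPKM in the MCK-Musclin libraries. All MCK-Musclin libraries lay above all WT libraries, as for 2183 of the genes tested (17.9%). The means were 4.27 ± 0.030 FPKM (SD, n = 3) in WT and 7.68 ± 1.57 FPKM (SD, n = 3) in MCK-Musclin. The log2 fold change was 0.71 (SE 0.14, limma unadjusted p = 0.00135, adjusted p = 0.143). Pck2 passed the cutoff in each of the 6 fits that left out a library, the library labelled MCK-Musclin replicate 1 included, with log2 fold changes from 0.56 to 0.78. With libraries centred on general adipocyte markers the adjusted p was 0.0374 in limma, but 935 of the 12197 genes tested had an adjusted p under 0.05 in that fit, 98.5% of the genes past the cutoff were higher, and the median log2 fold change of all genes moved from 0.06 to 0.25. Lymphocyte markers were also higher in MCK-Musclin iWAT. All 8 B cell markers passed the cutoff upward (median log2 fold change 0.92), and their sums were 285, 167 and 146 FPKM in WT and 320, 425 and 411 FPKM in MCK-Musclin, with Cd79a the most abundant and none at 0. Of the 9 T cell markers 5 passed upward (median 0.56), with sums of 127, 96.0 and 127 FPKM in WT and 185, 178 and 186 FPKM in MCK-Musclin, Cd3g being the most abundant and none at 0. Without the library labelled MCK-Musclin replicate 1, 8 of 8 B cell markers (median 0.98) and 6 of 9 T cell markers (median 0.62) passed upward. Their part in the Pck2 result was not tested, and a change in the cells present and a change of RNA within cells cannot be told apart in bulk tissue.

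Fbp2 was 0.97, 1.94 and 5.52 FPKM in WT and 0.45, 0.76 and 0.79 FPKM in MCK-Musclin iWAT. All MCK-Musclin libraries lay below all WT libraries, as for 5.44% of genes, and the WT libraries differed 5.69-fold among themselves. Fbp2 passed the filter on low values only through WT, whose mean was 2.81 FPKM against 0.67 FPKM in MCK-Musclin, so its fit is given as a description. The log2 fold change was -1.01 (SE 0.40, limma unadjusted p = 0.0368, adjusted p = 0.271), and it was -1.62 and -1.74 with 0.1 and 0.01 FPKM added in place of 1. Without WT replicate 3 it fell under the filter, leaving 1 member counted. Without the library labelled MCK-Musclin replicate 1, whose label Ostn did not bear out, the log2 fold change was -0.92 and Fbp2 missed the cutoff, again leaving 1 member. It missed the cutoff as well without WT replicate 2 (-1.11), MCK-Musclin replicate 2 (-1.06) or MCK-Musclin replicate 3 (-1.07), and with libraries centred on general adipocyte markers (-0.82). Its residual spread was above that of 97.9% of genes.

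Fast muscle and beige fat markers varied beside Fbp2. The 19 fast muscle markers summed to 51.4, 973 and 5346 FPKM in the WT libraries and to 51.1, 233 and 249 FPKM in the MCK-Musclin libraries. Tnnc2, the most abundant in 4 of the 6 libraries, was 1829 FPKM in WT replicate 3, or 3.30% of the TA muscle value, while Fbp2 there was 39.8% of its TA value. Ckm and Myh4 were listed at 0 in WT replicate 1 and Ckm and Pvalb in the library labelled MCK-Musclin replicate 1. None of the 18 fast muscle markers tested passed the cutoff (median log2 fold change -2.05). Of the 12 brown and beige fat markers 7 passed it downward (median -1.28), and their sums were 591, 928 and 1102 FPKM in WT and 662, 237 and 128 FPKM in MCK-Musclin, with Cidea the most abundant and none at 0. Without the library labelled MCK-Musclin replicate 1, 10 of the 12 passed downward (median -1.77) and 0 of 18 fast muscle markers did (median -1.23). Ucp1, the uncoupling protein of thermogenic fat, was 130, 248 and 346 FPKM in WT and 173, 31.6 and 2.91 FPKM in MCK-Musclin. The part of either group of cells in the Fbp2 result was not tested.

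**Figure D2:**
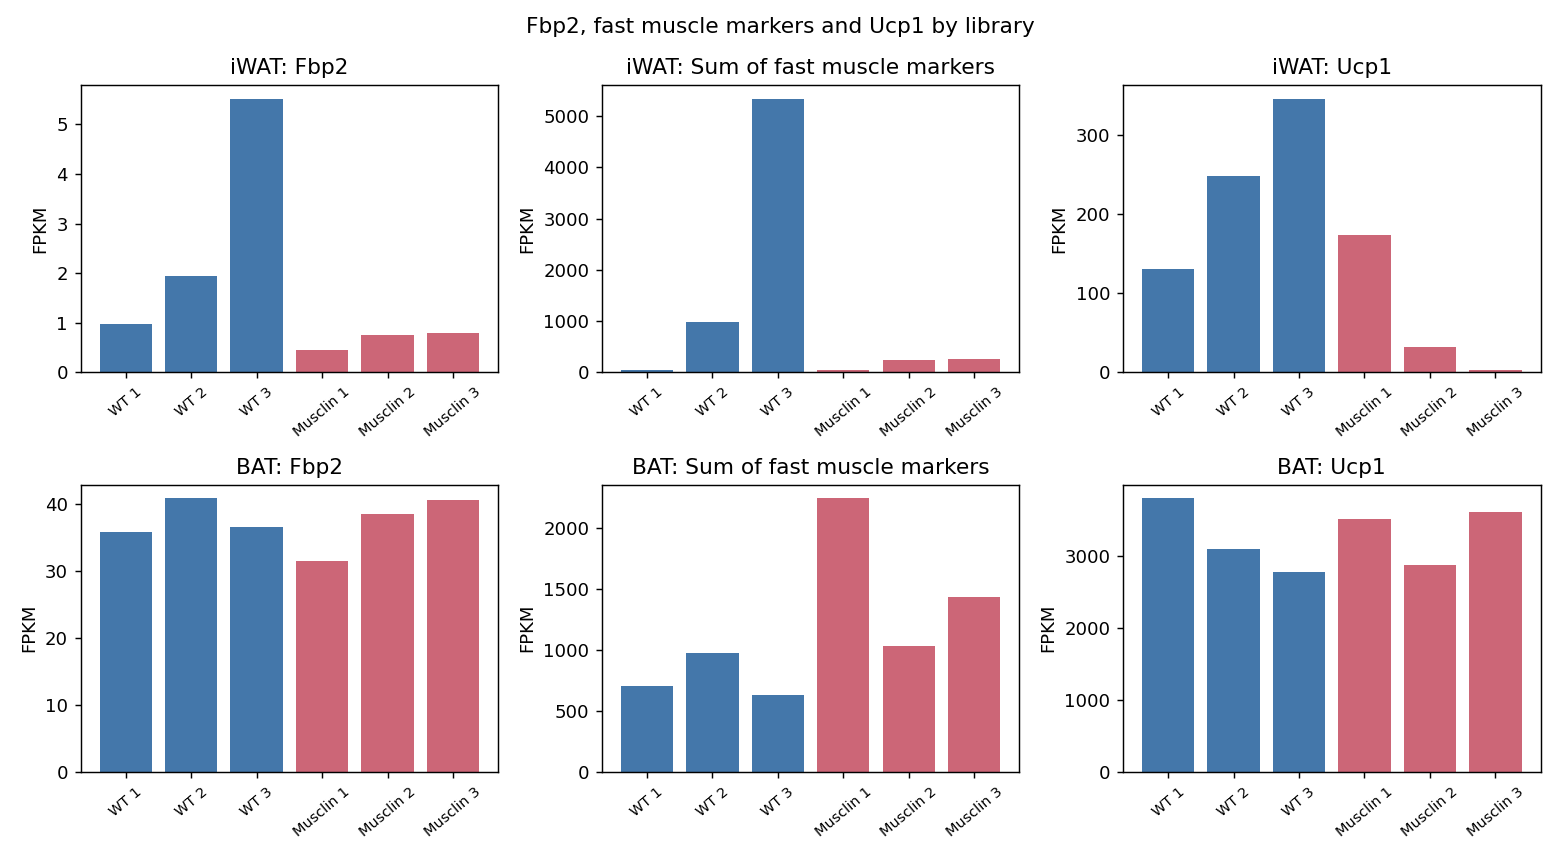
Bars show FPKM (linear axis from 0) of Fbp2, the sum of 19 fast skeletal muscle markers and Ucp1 in each library of iWAT (top) and BAT (bottom), WT in blue and MCK-Musclin in red. In iWAT all 3 measures were highest in WT replicate 3, and in BAT Fbp2 lay between 31.5 and 40.8 FPKM while the muscle sum ranged from 632 to 2239 FPKM.

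Pck1, Pcx and G6pc3 did not pass the cutoff in iWAT. Pck1 was 192, 904 and 414 FPKM in WT and 633, 694 and 492 FPKM in MCK-Musclin iWAT, so the WT libraries spanned the others. Its log2 fold change was 0.53 (SE 0.50, limma adjusted p = 0.634). Without WT replicate 2 the log2 fold change was 1.09 and passed the cutoff, and without WT replicate 1 it was -0.03, so single WT libraries set it. Pcx was 223, 155 and 132 FPKM in WT and 168, 110 and 126 FPKM in MCK-Musclin (log2 fold change -0.32, SE 0.23), and the log2 fold change was -0.11 without WT replicate 1 and -0.19 without MCK-Musclin replicate 2. G6pc3 was between 6.38 and 9.26 FPKM in WT and between 6.73 and 8.34 FPKM in MCK-Musclin (log2 fold change 0.04, SE 0.15), and its sign changed with the scaling. Without the library labelled MCK-Musclin replicate 1 the log2 fold change was 0.49 for Pck1, -0.49 for Pcx and -0.02 for G6pc3, and none of these passed the cutoff.

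The balance of Pck1 to Pck2 was taken in each library as the log2 ratio of their FPKM, with 1 FPKM added to each. In iWAT it was 6.31 ± 1.12 (SD, n = 3) in WT and 6.13 ± 0.50 (SD, n = 3) in MCK-Musclin. The difference of -0.18 was smaller than the spread between libraries (exact two-sided permutation p = 1, the smallest possible being 0.1). Single libraries set its direction, since it was 0.38 without WT replicate 2, 0.11 without MCK-Musclin replicate 3 and -0.74 without WT replicate 1. It was -0.29 without the library labelled MCK-Musclin replicate 1, and -0.29 and -0.30 with 0.1 and 0.01 FPKM added in place of 1. Pck2 made up between 0.469% and 2.19% of the carboxykinase FPKM in the 6 libraries.

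In cold-exposed BAT, Pck2 was lower in MCK-Musclin mice, and no other member passed the cutoff. Here 10893 genes had a mean of at least 1 FPKM and the log2 cutoff was 0.3. Of the 7 members 5 were tested and 1 was counted, in the lower direction, beside 436 of all genes tested, 234 of them lower (2.15%) and 202 higher (1.85%). At an adjusted p under 0.05 (limma) 1 gene was counted (0.00918%), Ostn itself, and 0 members. An unadjusted p under 0.05 (limma) was met by 533 of the 10893 genes, about the share expected with no difference at all.

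Pck2 was 3.16, 2.25 and 1.78 FPKM in WT and 1.11, 1.09 and 1.64 FPKM in MCK-Musclin BAT. All MCK-Musclin libraries lay below all WT libraries, as for 5.63% of genes, the closest pair being WT replicate 3 and MCK-Musclin replicate 3. The means were 2.40 ± 0.70 FPKM (SD, n = 3) and 1.28 ± 0.31 FPKM (SD, n = 3). The log2 fold change was -0.56 (SE 0.19, limma unadjusted p = 0.0173, adjusted p = 0.968), and -0.84 and -0.89 with 0.1 and 0.01 FPKM added in place of 1. It was -0.41 without WT replicate 1, -0.51 without MCK-Musclin replicate 1 and -0.51 without MCK-Musclin replicate 2, and in each of these Pck2 missed the cutoff, as it did with centring on general adipocyte markers (-0.45). B cell markers summed to at most 0.98 FPKM and T cell markers to at most 1.65 FPKM in each BAT library. Of 18 fast muscle markers tested, 16 passed the cutoff upward in BAT (median log2 fold change 0.87). Their part in the Pck2 result was not tested.

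Fbp2 was 35.9, 40.8 and 36.6 FPKM in WT and 31.5, 38.5 and 40.6 FPKM in MCK-Musclin BAT. The groups overlapped, and the log2 fold change was -0.04 (SE 0.12, limma adjusted p = 0.991). Of 18 fast muscle markers tested, 16 passed the cutoff upward (median log2 fold change 0.87), with sums of 707, 976 and 632 FPKM in WT and 2239, 1028 and 1436 FPKM in MCK-Musclin, Tnnc2 being the most abundant and none at 0. The part of muscle RNA in the Fbp2 level of BAT was not tested. Brown adipose of the tissue panel, from mice with no cold treatment in the labels, held 3.37 FPKM of Fbp2, and Ucp1 was 467 FPKM there against 2778 to 3792 FPKM in cold BAT. These tables came from different mice and were not tested against each other.

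G6pc3 was 5.47, 4.95 and 6.23 FPKM in WT and 6.53, 6.79 and 7.25 FPKM in MCK-Musclin BAT. All MCK-Musclin libraries lay above all WT libraries, as for 4.38% of genes. The log2 fold change of 0.27 (SE 0.12, limma adjusted p = 0.968) did not pass the cutoff, but it did without WT replicate 3 (0.34), as TPM (0.30) and with 0.01 FPKM added in place of 1 (0.31). Pck1 was 501, 897 and 720 FPKM in WT and 782, 660 and 684 FPKM in MCK-Musclin (log2 fold change 0.04, SE 0.20). Pcx lay between 96.8 and 115 FPKM in the 6 libraries (log2 fold change 0.03, SE 0.10). Fbp1, at 1.13 FPKM or less, and G6pc, listed at 0 in 4 of the 6 libraries, were under the filter on low values.

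**Figure D3:**
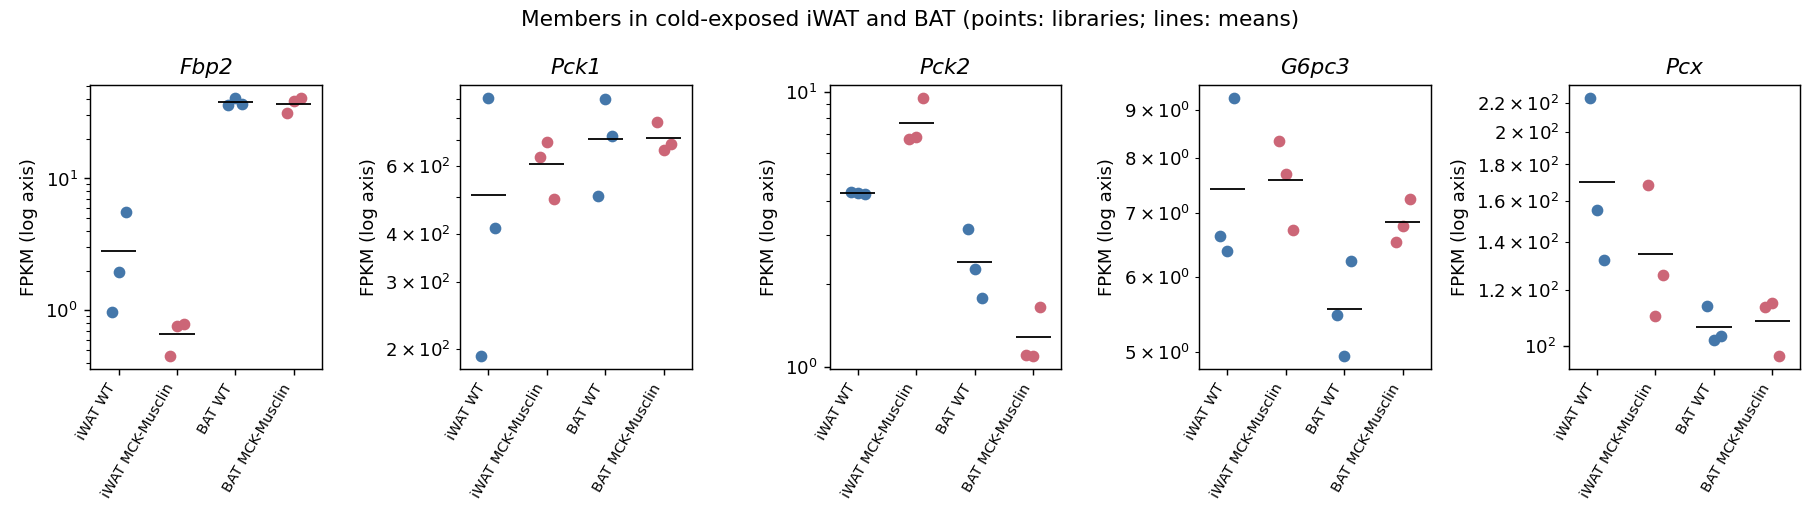
Points show FPKM (log axis) of 5 members in each library of cold-exposed iWAT and BAT, WT in blue and MCK-Musclin in red, with group means as lines. Pck2 lies higher in all 3 iWAT libraries labelled MCK-Musclin and lower in all 3 of BAT. Ostn did not bear out the label of iWAT MCK-Musclin replicate 1, which also held little muscle RNA. Pck1 in iWAT WT spreads from 192 to 904 FPKM.

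In BAT the log2 ratio of Pck1 to Pck2 was 7.68 ± 0.66 (SD, n = 3) in WT and 8.29 ± 0.26 (SD, n = 3) in MCK-Musclin (difference 0.61, exact two-sided permutation p = 0.2). The difference was 0.22 without WT replicate 1, and 0.89 and 0.93 with 0.1 and 0.01 FPKM added in place of 1 (exact permutation p = 0.1 for both, the smallest possible). The ratios of Fbp1 to Fbp2 and of G6pc to G6pc3 are not read as a balance in BAT, since with Fbp1 and G6pc low or listed at 0 the added 1 FPKM sets much of them.

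Other genes of the pathway were described by lists, each beside the median log2 fold change of all genes, 0.06 in iWAT and -0.01 in BAT. The log2 cutoff was 0.5 in iWAT and 0.3 in BAT, so counts of the 2 depots cannot be set against each other. Of the reversible steps shared with glycolysis, 0 of 10 tested passed the cutoff in iWAT (median -0.36) and 2 of 9 passed upward in BAT (median 0.08), Pgam2 at 0.93 and Eno3 at 0.89. Both of these are also fast muscle markers. Of the opposing kinases, Hk2, the insulin-responsive hexokinase, was lower in iWAT by a log2 fold change of -0.97 and Hk1 higher by 0.54, of 11 tested (median -0.26), and 0 of 10 passed in BAT (median 0.15). Of the substrate supply genes, 0 of 13 passed in iWAT (median -0.22), and in BAT 1 of 12 did (median -0.07), the aspartate aminotransferase Got1 at 0.60. Some iWAT genes of these 3 lists lay between the 2 cutoffs with a limma unadjusted p under 0.05. Among them were Aldoa (-0.44), Pgk1 (-0.41), Pfkl (-0.48), Ldhb (-0.45) and Mpc1 (-0.46). In the tissue panel Got1 was 235 FPKM in heart, 121 FPKM in TA muscle and 7.38 FPKM in brown adipose. In BAT 16 of 18 fast muscle markers also passed upward, and their part in these results was not tested.

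Of the genes of glycerol handling and glyceroneogenesis, 4 of 13 tested passed downward in iWAT and 1 upward (median -0.43). Those lower were Gpd1, which makes glycerol phosphate (log2 fold change -0.73), Gpd2 (-0.93), the glycerol kinase Gk (-0.98) and Lpin1 (-0.63), and Gpd1l was higher (0.73). Lpin1 and Gpd1l were named after their values were seen. Brown and beige fat markers were lower beside these genes, 7 of 12 passing downward (median -1.28). In the tissue panel Gpd1 was 1403 FPKM in brown and 288 FPKM in white adipose, Gpd2 87.7 and 7.98 FPKM, and Gk 12.3 and 2.05 FPKM. Lpin1 did not share that order, at 97.5 FPKM in brown and 106 FPKM in white adipose. The part of thermogenic fat cells in these results was not tested. In BAT 1 of 13 passed, Dgat2 at -0.31 (median -0.05). Of the regulators, Ppargc1a at -0.84 and Ppara at -0.65 passed downward in iWAT, of 14 tested (median -0.10), and 0 of 14 passed in BAT (median 0.00). Ppargc1a is also one of the brown and beige fat markers, and Ppara was 42.0 FPKM in brown and 1.61 FPKM in white adipose of the panel. Of Atf4 and its targets, a group that responds to amino acid shortage, Chac1 at -0.59 passed downward in iWAT, of 13 tested (median -0.09), and Ddit4 at -0.63 in BAT, of 11 tested (median -0.09). Of the biotin-dependent carboxylases and biotinylation enzymes, the group to which Pcx belongs, 0 of 8 passed in iWAT (median -0.26) and 1 of 8 in BAT (median 0.04), the biotin ligase Hlcs at 0.32. Acacb (-0.44), Pcca (-0.35) and Pccb (-0.32) in iWAT lay between the cutoffs of the depots with a limma unadjusted p under 0.05.

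Without the library labelled MCK-Musclin replicate 1 more genes of these lists passed downward in iWAT, beside 10 of 12 brown and beige fat markers, 178 lower and 699 higher of 12182 genes tested and a median of 0.07. Of the glycerol list 6 of 13 passed downward (median -0.53), with Dgat2 and Gpam in addition, and Gpd1l upward. Of the reversible steps 2 of 10 passed downward (median -0.46), Aldoa and Pgk1. Of the substrate supply genes 3 of 13 did (median -0.30), Ldhb, Mpc1 and Mpc2, of which the latter pair carry pyruvate into mitochondria. Of the regulators 3 of 14 did (median -0.17), Ppargc1b in addition, and of the biotin enzymes 2 of 8 (median -0.33), the acetyl-CoA carboxylases Acaca and Acacb. Of the opposing kinases 2 of 11 passed downward, Hk2 and Pfkl, and Hk1 upward (median -0.32), and 0 of 13 Atf4 genes passed (median 0.07). The genes added here were named after their values were seen.

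The remaining marker lists gave the makeup of the fat libraries, again at a log2 cutoff of 0.5 in iWAT and 0.3 in BAT. General adipocyte markers, led by Fabp4, had a median log2 fold change of -0.15 in iWAT and -0.05 in BAT, with 0 of 10 past the cutoff in each. Of 8 macrophage markers tested in iWAT 1 passed upward (median 0.15), Cd68, and of 6 in BAT 1 did (median 0.26), Csf1r. Of 4 neutrophil markers tested in iWAT 2 passed upward (median 1.12), Ngp and S100a8, and none reached the filter in BAT. Of 5 endothelial markers 0 passed in either depot. Of 2 cardiomyocyte markers tested in iWAT both passed upward, Tnnt2 at 0.61 and Tnni3 at 0.50. In BAT 1 of 12 brown and beige fat markers passed, Cox8b at -0.35, and 0 of 5 slow muscle markers did. In iWAT 0 of 2 slow muscle, 0 of 4 hepatocyte, 0 of 1 brain and 0 of 1 epithelial markers passed. Without the library labelled MCK-Musclin replicate 1, 0 of 8 macrophage markers, 1 of 4 neutrophil markers (S100a8) and 1 of 2 cardiomyocyte markers (Tnnt2) passed in iWAT, and no adipocyte, endothelial, slow muscle, hepatocyte, brain or epithelial marker did. In BAT 0 of 1 hepatocyte and 0 of 1 brain markers passed, and no B cell, T cell, cardiomyocyte or epithelial marker reached the filter on low values. Enterocyte markers reached it in neither depot.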

How the data were processed

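Per the labels and the study's methods, the authors aligned reads with HISAT2 (2.1.0) to GRCm38 and deposited FPKM values in 3 tables. The methods name StringTie for the FPKM and the submitters' processing notes name Cuffdiff, and which of them made the values is not settled. The iWAT table also holds the authors' own comparison (fold changes, p-values and base means), which was not used. Repeated lines of a gene, 287 in each of the tissue and BAT tables, held identical values and were read once. The filter that left 13756 genes in the iWAT table is not given in the sources used here. Steps between low FPKM values gave relative depths of 0.890 to 1.11 in BAT (first WT library at 1), and the depth of the other libraries is unknown. Values were analysed as log2(FPKM + 1) with limma (3.58.1, R 4.3.3) within each table, over genes with a mean of at least 1 FPKM, with Benjamini-Hochberg adjustment. Fits were tested on simulated data. Ratios of paralogs, with 1 FPKM added to each gene, were compared by exact permutation. The members and the gene lists were chosen with earlier results of these data known, so their directions are not independent evidence. In each list up to 4 genes with the largest absolute log2 fold change could be named. Of symbols with 2 gene IDs, the ID of the iWAT table was used. Alternative pseudocounts, filters, scalings, variance models, a replicate block and leaving out each library were tried.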

Additional observations from a re-analysis of the deposited data

Results flagged for a closer look

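Pck2 had log2 fold changes of opposite sign in the 2 fat depots. Its log2 fold change, MCK-Musclin against WT, was 0.71 in iWAT, with the 3 libraries labelled MCK-Musclin above the 3 WT libraries. It was 0.78 without the iWAT library labelled MCK-Musclin replicate 1, whose label Ostn did not bear out and which held little muscle RNA. In BAT the log2 fold change was -0.56, with the 3 MCK-Musclin libraries below the 3 WT libraries. Neither passed adjustment (limma adjusted p = 0.143 in iWAT and 0.968 in BAT). Among the 10893 genes tested in BAT, 533 had a limma unadjusted p under 0.05, about the share expected with no difference at all. In iWAT 17.9% of genes had all MCK-Musclin libraries above all WT libraries, and in BAT 5.63% had them all below. The BAT value missed the cutoff without WT replicate 1 (-0.41), MCK-Musclin replicate 1 (-0.51) or MCK-Musclin replicate 2 (-0.51) and with centring on adipocyte markers (-0.45). Beside these values, 8 of 8 B cell markers in iWAT and 16 of 18 fast muscle markers in BAT passed the cutoff upward. Their part was not tested. The difference between the depots was not tested, since each table was fitted alone and the RNA of the depots was isolated in different ways.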

How the results depend on the processing

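In iWAT the count of members past the cutoff was 2 and became 1 with a mean of at least 5 FPKM, where Fbp2 was not tested, and 1 with centring on adipocyte markers, where Fbp2 was lost. Leaving out a library gave 1 to 2 members, and without WT replicate 2 the 2 were Pck1 and Pck2. In BAT the count was 1 and became 2 with a pseudocount of 0.01 and 2 as TPM, with G6pc3 added in both, 0 with a mean of at least 5 FPKM, where Pck2 was not tested, and 0 with centring, and it ran from 0 to 2 without a library. The Pck1 to Pck2 balance in iWAT ran from -0.74 to 0.38 without a library, being 0.38 without WT replicate 2 and 0.11 without MCK-Musclin replicate 3. In BAT the Pck1 to Pck2 balance (0.61) ran from 0.22 to 0.82 without a library. The Fbp1 to Fbp2 ratio (-0.10) ran from -0.33 to 0.20 without a library (0.20 without WT replicate 1, 0.16 without MCK-Musclin replicate 2) and was -0.50 and -1.40 with pseudocounts of 0.1 and 0.01, and that of G6pc to G6pc3 (-0.22) was 0.082 and 1.32 with them. With 3 libraries against 3 no ratio could reach an exact p under 0.1. Signs also turned for members that were not called. In iWAT G6pc3 was -0.0060 as TPM, -0.029 with median-ratio scaling and -0.030 with quantile normalization, and ran from -0.046 to 0.19 without a library (-0.024 without WT replicate 1, -0.022 without the library labelled MCK-Musclin replicate 1), Pck1 ran from -0.028 to 1.09, and Pcx, with no change of sign, from -0.49 to -0.11 (-0.13 with centring). In BAT Fbp2 was 0.075 with centring and ran from -0.11 to 0.069 (0.018 without WT replicate 2), Pck1 from -0.18 to 0.23 (-0.030 without MCK-Musclin replicate 1) and Pcx from -0.018 to 0.10 (-0.0096 without MCK-Musclin replicate 1). The cause was not tested. Over all genes, centring moved the count in iWAT from 725 to 1760 past the cutoff and from 0 to 935 at an adjusted p under 0.05 (limma), and leaving out WT replicate 1 gave 86. Of the genes past the cutoff in iWAT 84.8% were higher, against 74.6% as TPM, 70.0% with median-ratio scaling, 70.2% with quantile normalization and 98.5% with centring. In BAT 46.3% were higher, against 56.6% as TPM and 83.8% with centring, and the count was 216 with a mean of at least 5 FPKM, where 5951 genes were tested, against 436. At an adjusted p under 0.05 leaving out a library gave 1 to 4 genes in BAT. The count of genes with a leading tissue was 3258 and became 6923 with a fold of 2. With the replicate number as a block, 2 members were past the cutoff in iWAT and 1 in BAT, and the differences of the ratios, which a block cannot move in this balanced design (-0.18, -0.10, 0.61 and -0.22), had exact sign-flip p-values of 1, 0.5, 0.25 and 0.25, the smallest possible being 0.25. Deviations of same-numbered libraries correlated at 0.23, 0.06 and 0.11 in iWAT and -0.10, 0.00 and 0.01 in BAT. Those of libraries with different numbers correlated at -0.18 to 0.07 in iWAT and -0.08 to 0.08 in BAT. Whether same-numbered libraries share more than a number in iWAT is not settled, and the main fits did not pair them. Whether depth limits the low Fbp1 and G6pc values in BAT was not tested.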

Other observations

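Within BAT some genes of the pathway lists differed widely between libraries of one group. Gapdh was 34.2, 529 and 394 FPKM in WT and 37.5, 32.0 and 380 FPKM in MCK-Musclin BAT, while Aldoa stayed between 1663 and 1967 FPKM. Agpat2, an acyltransferase of triglyceride synthesis, was 238, 1721 and 211 FPKM in WT and between 206 and 251 FPKM in MCK-Musclin BAT. In WT iWAT it was 139, 704 and 82.7 FPKM, so WT replicate 2 was highest in both depots. That replicate number also held the highest Pck1 of WT in both depots, and the highest Nr4a1, at 47.1 FPKM in BAT and 13.2 FPKM in iWAT. These genes were picked after their values were seen. How often the same replicate number is highest in both depots over all genes was not counted.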
